A study of Mus musculus with 50 samples.

Results

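Regulatory T cells (Treg cells) of ear skin were set against Treg cells of spleen in the arm labelled DT (diphtheria toxin). The comparison holds 6 libraries, 3 of ear skin and 3 of spleen, chosen by tissue and arm from 50 libraries in the series, of which 32 are Treg cells from outside the thymus. The cells were CD4+ and positive for a GFP reporter of Foxp3, double-sorted from male mice labelled 20 weeks old that carry the Foxp3tm3(HBEGF/GFP)Ayr allele on a B6.129(Cg) background. With that allele the Foxp3 locus itself drives both a diphtheria toxin receptor and GFP, so the toxin removes Foxp3+ cells. Per the series text, mice received the toxin on 3 days at 12 weeks of age and rested for 8 to 9 weeks, and the littermates set against them lacked the receptor and received the toxin too. The library titles instead call those littermates PBS, and the genotype reads WT and the strain label names the receptor allele in both arms. Depletion can therefore not be read from the labels, and the arms are called DT and PBS as in the titles. Each library came from 500 to 1000 cells. Whether each library is a different animal is not stated, so every p-value reflects variation among libraries, possibly technical only. Each tissue was digested by its own protocol before sorting.

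Treg cells are the CD4 T cells that restrain immune responses, and Foxp3 is the transcription factor they depend on. In lymphoid organs most recirculate, held in that state by Klf2, Tcf7 and Lef1 and guided by receptors such as the sphingosine phosphate receptor S1pr1. In barrier tissues such as skin, resident Treg cells carry other homing receptors, the integrin chain CD103 (Itgae), the interleukin 33 receptor ST2 (Il1rl1) and factors of tissue repair such as amphiregulin (Areg).

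Total counts ran from 2521078 to 3324183 in the ear skin libraries and from 3696953 to 5569390 in the spleen libraries. Thinned to the same number of counts, ear skin libraries held 28395 to 32016 detected genes and spleen libraries 20660 to 23407. Genes that averaged under 1 CPM (read counts scaled to a common library size, with TMM factors) took 1.21 to 2.1% of the counts in ear skin and 0.442 to 0.673% in spleen. Correlation of log levels over genes was 0.929 to 0.933 between ear skin libraries, 0.959 to 0.965 between spleen libraries and 0.866 to 0.883 across the tissues. The part of these differences in the results below was not tested.

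In DT ear skin Treg cells, amphiregulin, interleukin 10, granzyme B and the integrin CD103 were far above their levels in spleen Treg cells. The survival gene Bcl2, the integrin chain Itga4 and the ATP receptor P2rx7 were far below, and Foxp3 did not pass the test. Of 17731 genes tested, 3926 were called (22.1%; edgeR quasi-likelihood F test, Benjamini-Hochberg adjusted p under 0.05). The calls were split into 1864 higher (10.5%) and 2062 lower (11.6%) in ear skin. The split depends on the scaling: with RLE size factors 2320 genes were higher and 1483 lower, and with DESeq2 2864 and 1628. RLE moved the log2 fold changes by a median of 0.154, and the median over all genes tested was 0.126 with TMM, so small rises and falls are to be read against that shift.

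Foxp3 had 402, 364 and 349.5 CPM in the ear skin libraries, against 267.5, 363 and 340.4 CPM in the spleen libraries. The ranges overlap, and the log2 fold change of 0.20 ± 0.22 (SE) did not pass the test (edgeR adjusted p = 0.529). Ikzf2, which encodes the Treg factor Helios, had 622, 524 and 501 CPM in ear skin, against 614, 560.5 and 624 CPM in spleen, with no call (adjusted p = 0.564). Its direction turns with the scaling, from -0.13 with TMM to 0.03 with RLE. Il2ra, the CD25 chain of the interleukin 2 receptor, stood at 763 ± 89.0 CPM in ear skin and 498 ± 37.6 CPM in spleen (SD, n = 3 each), a log2 fold change of 0.61 ± 0.22 (adjusted p = 0.0394). That call was lost without 5 of the 6 libraries in turn and without the filter on low counts (adjusted p = 0.055).

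Across 24 tested genes of the Treg core list, 11 rose and 7 fell, and the list median was a log2 fold change of 0.45. Icos, a costimulatory receptor, was among those that rose (2.01 ± 0.22, adjusted p = 2.00e-08), as was Ctla4, an inhibitory receptor (1.52). Genes that fell included the folate receptor family gene Izumo1r (-4.02 ± 0.31, adjusted p = 1.32e-11), the orphan receptor gene Gpr83 (-4.91), the neuropilin gene Nrp1 (-2.02) and Lrrc32, which encodes the GARP docking protein of latent TGF-beta (-1.62). Izumo1r had 107, 99.9 and 61.7 CPM in ear skin, against 1487, 1377 and 1482 CPM in spleen. Surface and signalling genes used to mark Treg cells thus moved in both directions.

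Messages of the T cell receptor complex were lower in ear skin. Of 8 CD4 T cell marker genes, 7 fell and none rose (median log2 fold change -0.86, and -0.71 with RLE), Cd3d by the most (-1.40), while Cd4 averaged 766 CPM in ear skin and 662 CPM in spleen, without a call. Summed, the 8 markers reached 3760 to 4220 CPM in ear skin and 6930 to 7060 CPM in spleen. In bulk libraries, fewer cells of a type and less RNA per cell cannot be told apart.

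**Figure D1:**
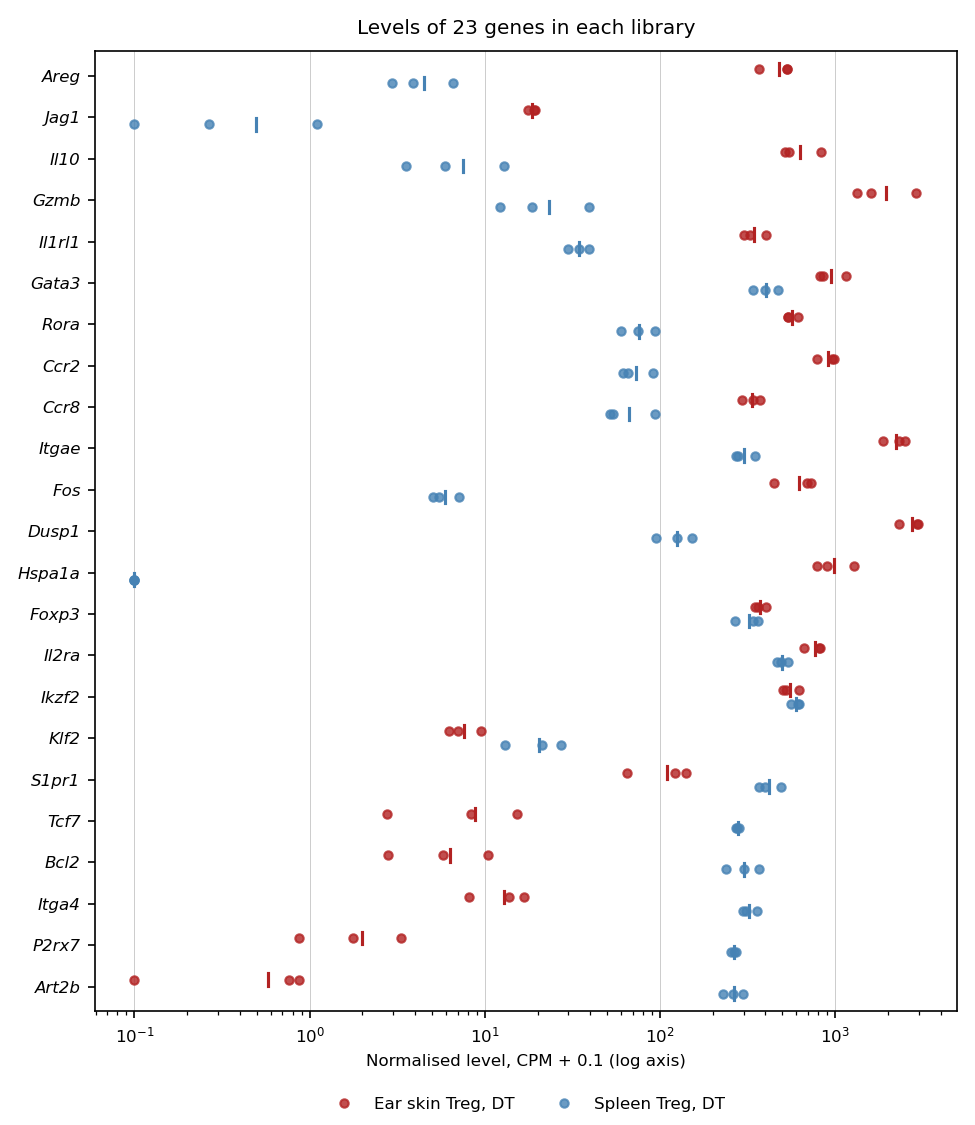
Level of 23 genes in each library of ear skin (red, upper row of each gene) and spleen (blue, lower row) Treg cells of the DT arm, as CPM + 0.1 on a log axis. Each point is 1 library and each bar the group mean of 3. Foxp3 overlaps between the tissues, while Areg, Il10 and Gzmb lie to the right in ear skin and Tcf7, Bcl2 and Art2b to the left.

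Of the 94 named genes with a RefSeq promoter window, 3 held the palindromic cyclic AMP response element TGACGTCA, the site of CREB and ATF factors. They were the repair factor gene Areg, the prohormone convertase gene Pcsk1 and the phosphatase gene Dusp1. Of all 12100 tested genes with a window, 2.99% held the element. The named genes were picked largely for differing between tissues (130 of 137 called). All 3 genes were higher in ear skin, and their RefSeq windows (GRCm38.p6, 250 bases before to 50 after the gene start) are shown for that reason, each 5′ to 3′ on the gene's strand with the element in capitals. It begins 61, 78 and 143 bases before the start of Areg, Pcsk1 and Dusp1, in that order. The windows are chr5:91139349-91139648 (+), chr13:75089607-75089906 (+) and chr17:26508423-26508722 (-).
Areg: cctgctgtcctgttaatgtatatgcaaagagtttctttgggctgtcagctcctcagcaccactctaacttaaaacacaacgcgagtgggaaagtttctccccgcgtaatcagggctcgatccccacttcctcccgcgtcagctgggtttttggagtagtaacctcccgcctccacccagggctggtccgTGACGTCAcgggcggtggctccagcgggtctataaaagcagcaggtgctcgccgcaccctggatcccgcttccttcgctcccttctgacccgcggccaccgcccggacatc
Pcsk1: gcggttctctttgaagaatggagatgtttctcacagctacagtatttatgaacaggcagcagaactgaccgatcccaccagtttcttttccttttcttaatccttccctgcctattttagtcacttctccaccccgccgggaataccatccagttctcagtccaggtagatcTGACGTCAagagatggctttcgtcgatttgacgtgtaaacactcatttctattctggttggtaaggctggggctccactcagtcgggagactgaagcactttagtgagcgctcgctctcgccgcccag
Dusp1: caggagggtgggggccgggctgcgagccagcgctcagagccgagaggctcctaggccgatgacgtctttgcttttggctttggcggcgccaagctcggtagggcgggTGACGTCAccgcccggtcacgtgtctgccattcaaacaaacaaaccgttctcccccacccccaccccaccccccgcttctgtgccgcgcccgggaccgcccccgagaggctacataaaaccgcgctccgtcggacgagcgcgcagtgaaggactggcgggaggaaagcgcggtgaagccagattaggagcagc

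The element was found in the windows of 2.94% of 1292 genes called higher and 2.76% of 1597 called lower, against 2.99% of all 12100 tested genes with a window and 1.88% of all 27025 windows. Its share among the called genes was thus close to that among all tested genes. It does not contain the 7 letters searched for AP-1 sites, TGANTCA. Those were present in 7.43% of windows of genes called higher, 5.13% of genes called lower and 5.54% of all tested genes. The NF-kB letters GGANTTTCC were in 2.09%, 1.00% and 1.33%, the GATA letters AGATAA in 7.74%, 7.01% and 7.21% and the KLF letters CCACACCC in 4.26%, 4.20% and 3.80% of the same windows. Both strands were searched. These shares describe letters in short windows only.

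Amphiregulin, an epidermal growth factor receptor ligand that Treg cells use in wound repair, was scarce in spleen. Areg (chr5:91139599-91148432 in mm10) had 527, 369 and 532 CPM in ear skin, against 6.52, 2.86 and 3.78 CPM in spleen. Every ear skin library lay far above every spleen library, at a log2 fold change of 6.72 ± 0.45 (adjusted p = 6.98e-13). Pcsk1 had 147, 98.0 and 133 CPM in ear skin, against 0, 0.191 and 3.02 CPM in spleen, and Dusp1, a phosphatase that ends MAP kinase signals, had 2315, 2936 and 2962 CPM against 153, 94.5 and 125.5 CPM.

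Of 19 tested genes of tissue repair, 8 rose and none fell (median log2 fold change 1.74, against 0.126 over all genes tested). Jag1, a Notch ligand through which skin Treg cells act on hair follicle stem cells, had 19.1, 17.5 and 18.9 CPM in ear skin, against 0.167, 0 and 1.01 CPM in spleen (5.66 ± 0.81, adjusted p = 2.39e-06). Furin, the protease that matures TGF-beta, rose by 2.61 ± 0.32 on the log2 scale, and Csf1, the macrophage growth factor, by 2.28 ± 0.37. Penk, the precursor of enkephalin peptides, had 191, 62.6 and 103 CPM in ear skin and 269.8, 90.1 and 97.5 CPM in spleen. Its groups overlap and it was not called (adjusted p = 0.593).

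Transcription factors of tissue Treg cells were higher as a group, with 15 of 20 called and all 15 higher in ear skin (median 1.92). Rora, the retinoid-related orphan receptor of tissue lymphocytes, had 612, 539.8 and 540.1 CPM in ear skin, against 93.3, 59.8 and 74.6 CPM in spleen (2.89 ± 0.25, adjusted p = 1.43e-10). Gata3, the type 2 lineage factor, had 852, 814 and 1154 CPM in ear skin, against 468, 396 and 338 CPM in spleen (1.23 ± 0.24, adjusted p = 0.000240). Id2, an inhibitor of E proteins, changed by 3.16 ± 0.27, Bhlhe40 by 3.37 ± 0.36 and Nr4a1, an immediate target of T cell receptor signals, by 4.23 ± 0.36. Tbx21, Hif1a, Epas1, Vdr and Bcl6 were the 5 members without a call.

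The interleukin 33 receptor gene Il1rl1 had 324, 299.9 and 405 CPM in ear skin, against 34.3, 29.6 and 39.0 CPM in spleen (3.32 ± 0.36, adjusted p = 1.79e-08). In its list of interleukin 1 family receptors and signalling, 5 of 13 genes rose and 2 fell. The rises included the decoy receptor gene Il1r2 (2.5 ± 0.38) and both interleukin 18 receptor genes, Il18r1 (1.84 ± 0.31) and Il18rap (2.18 ± 0.39). Sigirr, an inhibitory receptor of the family, and the adaptor gene Myd88 fell, at -0.96 and -0.94.

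Homing genes moved in both directions, with 11 of 22 higher and 6 lower. The chemokine receptor gene Ccr2 had 961, 783 and 991 CPM in ear skin, against 65.2, 61.1 and 91.2 CPM in spleen (3.65 ± 0.31, adjusted p = 9.25e-11). Ccr8, a receptor of skin-homing T cells, had 373, 294 and 338.5 CPM in ear skin, against 93.3, 51.6 and 53.7 CPM in spleen (2.34 ± 0.32, adjusted p = 1.41e-06). Cxcr6 rose by 3.90, Ccr10, the receptor of the keratinocyte chemokine Ccl27, by 3.06, and Fut7, a fucosyltransferase gene of homing ligands, by 2.94. Cxcr5, the receptor that leads T cells to B cell follicles, had 7.65, 1.62 and 0.995 CPM in ear skin, against 132, 111 and 132 CPM in spleen (-5.27 ± 0.73, adjusted p = 1.43e-06). Cxcr3, S1pr4, S1pr1 and Ccr7 were also called lower.

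Of 18 genes of recirculation and quiescence, 12 fell and 1 rose (median -1.33). Tcf7, which encodes TCF-1, had 2.68, 15.1 and 8.29 CPM in ear skin, against 272, 277 and 283 CPM in spleen (-4.93 ± 0.58, adjusted p = 7.62e-08). Lef1 fell by 2.79, S1pr1 by 1.94 and Klf2 by 1.42 on the log2 scale. Klf2 stood at 6.12, 9.45 and 6.96 CPM in ear skin and 12.9, 27.1 and 21.2 CPM in spleen. Ccr7 was lower as well (-1.20 ± 0.38, adjusted p = 0.0229), a call lost without ear skin library 6 (adjusted p = 0.133), with DESeq2 (adjusted p = 0.0574) and among genes averaging at least 10 CPM (adjusted p = 0.0508). Btg1 was the 1 member that rose.

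Integrins changed in both directions, 6 of 16 higher and 5 lower. Itgae had 2307, 1882 and 2498 CPM in ear skin, against 348, 272.5 and 279.9 CPM in spleen (2.89 ± 0.32, adjusted p = 2.80e-08). Its ligand, E-cadherin, is carried by epithelial cells. Itga4, the alpha 4 chain that binds VCAM-1 and MAdCAM-1 on vessels, had 8.04, 16.7 and 13.6 CPM in ear skin, against 309, 297 and 357 CPM in spleen (-4.62 ± 0.27, adjusted p = 3.15e-14). Cd44, the hyaluronan receptor, rose by 2.66 ± 0.22 and Itgav, a chain of TGF-beta activating integrins, by 2.34 ± 0.30 on the log2 scale.

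The regulatory cytokine gene Il10 had 548, 516 and 826 CPM in ear skin, against 5.86, 3.44 and 12.8 CPM in spleen (6.46 ± 0.63, adjusted p = 2.00e-09). Gzmb, the protease of cytotoxic granules, had 1591, 1330 and 2896 CPM in ear skin, against 12.0, 18.5 and 39.0 CPM in spleen (6.41 ± 0.53, adjusted p = 8.15e-11). Il4 had 13.0, 9.18 and 52.7 CPM in ear skin, against 0.502, 0.382 and 3.28 CPM in spleen. Ear skin library 6 was the highest, and without it the Il4 call was lost (adjusted p = 0.0703). Of 11 type 2 genes, 8 rose and none fell (median 2.34), among them the prostaglandin D2 receptor gene Ptgdr2 and Il17rb, a receptor chain of interleukin 25. Of 10 type 3 genes, 7 rose and 1 fell, with the chemokine receptor gene Ccr6 at 2.05 ± 0.36, the aryl hydrocarbon receptor gene Ahr at 1.81 ± 0.37 and Il21r at -0.94. Il17a, among the 7, had 11.5 CPM in ear skin library 4 and no count in the other ear skin libraries or in spleen, so that 1 library carries its call (adjusted p = 0.0271).

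Immediate early and stress messages were among the largest differences. Of 26 genes of the T cell receptor and immediate early response, 16 rose and 2 fell (median 2.12, and 2.08 with genes at 0 in spleen set at their bound). Fos had 449, 693 and 729 CPM in ear skin, against 5.35, 4.96 and 7.06 CPM in spleen (6.76 ± 0.49, adjusted p = 3.12e-12), and Fosl2 and Dusp4 rose by 5.02 and 3.99. Egr2 and Myc fell, at -1.92 and -1.39. The heat shock gene Hspa1a had 788, 899 and 1284 CPM in ear skin and no count in any spleen library, at least 5020-fold higher against the floor of 3 counts over the group. It shares near-identical sequence with Hspa1b, so the division of reads between them is uncertain. Of 15 heat shock and chaperone genes, 6 rose and 2 fell. The same genes stood at other levels in the other DT tissues: Fos averaged 623 ± 152 CPM in ear skin, 127 ± 42.4 in lung, 215 ± 45.2 in liver and 1785 ± 780 in visceral adipose tissue (VAT; n = 4), and Hspa1a 990.2 ± 260 CPM in ear skin, 14.5 ± 17.6 in lung, 437 ± 237 in liver and 116 ± 106 in VAT. Digestion differed between the tissues, and its part in these levels was not tested.

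Of 16 NF-kB genes, 10 rose and 1 fell (median 0.605). Tnfaip3, the A20 feedback inhibitor, rose by 4.0 ± 0.38 on the log2 scale, and the inhibitor genes Nfkbia, Nfkbiz and Nfkbid by 2.19, 2.19 and 2.78. Rela fell, at -0.63. Of 22 costimulatory and inhibitory receptors, 11 rose and 9 fell. Havcr2, which encodes TIM-3, rose by 3.81, whereas Pdcd1, which encodes PD-1, had 47.1, 50.7 and 48.7 CPM in ear skin, against 283, 153 and 171 CPM in spleen (-2.05 ± 0.25, adjusted p = 1.60e-07). Cd96 and Cd27 fell, at -3.68 and -1.36.

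Of 28 interferon response genes, 17 fell and 1 rose (median -1.36, and -1.20 with RLE). Usp18, the feedback regulator of interferon receptors, had 3.06, 7.56 and 2.65 CPM in ear skin, against 83.5, 89.9 and 73.1 CPM in spleen (-4.16 ± 0.47, adjusted p = 3.40e-08). Ifih1, an RNA sensor, and Irgm1, an immunity-related GTPase, fell by 2.99 and 1.58. Ifitm3 was the 1 member that rose (3.17).

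Genes of interleukin 2 and STAT5 signalling went in both directions, 4 of 16 higher and 8 lower. Bcl2, the survival factor, had 10.3, 2.7 and 5.64 CPM in ear skin, against 238, 365 and 302 CPM in spleen (-5.65 ± 0.43, adjusted p = 1.16e-11). Il2rb fell by 1.03, while Cish and Socs2, feedback inhibitors of cytokine receptors, rose by 1.25 and 1.43. Metabolic lists were higher in part: 10 of 22 glycolysis and hypoxia genes rose and 2 fell, 8 of 19 lipid genes rose and none fell, and 4 of 22 cholesterol synthesis genes rose and none fell, beside 10.5% called higher among all genes tested. Of the 4 cholesterol genes, Msmo1 lost its call without any 1 of the 6 libraries (adjusted p = 0.0653 to 0.22) and Hmgcs1 without ear skin library 4 or spleen library 6 (adjusted p = 0.0831 and 0.0751). Dgat2, which makes triglyceride, changed by 3.03 ± 0.54, Ndrg1, a hypoxia-induced gene, by 2.54 ± 0.29 and Pkm, a pyruvate kinase gene, by 1.07 ± 0.15.

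The remaining lists are given as counts of tested genes, to be read against the 10.5% called higher and 11.6% called lower among all genes tested. In the cell cycle list, 3 of 27 rose, a share near that background, none fell and the median was 0.96. Of these, Mki67 had 86.1, 97.7 and 117 CPM in ear skin, against 34.3, 21.8 and 45.4 CPM in spleen, and its call was lost without any 1 of ear skin library 6, spleen library 4 and spleen library 5 (adjusted p = 0.057 to 0.104). The call of Uhrf1, a second of the 3, was lost without any 1 of ear skin libraries 4 and 5 and spleen libraries 5 and 6 (adjusted p = 0.0572 to 0.159). Kif11 fell just short of a call (1.47, edgeR adjusted p = 0.0517). It was called with RLE (adjusted p = 0.0351) and DESeq2 (adjusted p = 0.0345), among other settings. In PBS mice 17 of the 27 were higher in ear skin and none lower (median 1.69). No member's difference between the arms was called. In the TGF-beta pathway 5 of 17 rose and 1 fell, among nuclear hormone receptors 10 of 18 rose and 1 fell, and of the cytokines 5 of 12 rose and 1 fell. Of the chemokine ligands 4 of 10 rose and none fell, of the type 1 and cytotoxic genes 4 of 16 rose and 2 fell, and of the mitochondrially encoded messages 2 of 10 rose and none fell. Among the chemokine ligands, Ccl3 lost its call without ear skin library 5 or spleen library 5 (adjusted p = 0.0847 and 0.0544), and Ccl4 without ear skin library 5, spleen library 4 or spleen library 5 (adjusted p = 0.0696 to 0.0892).

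**Figure D2:**
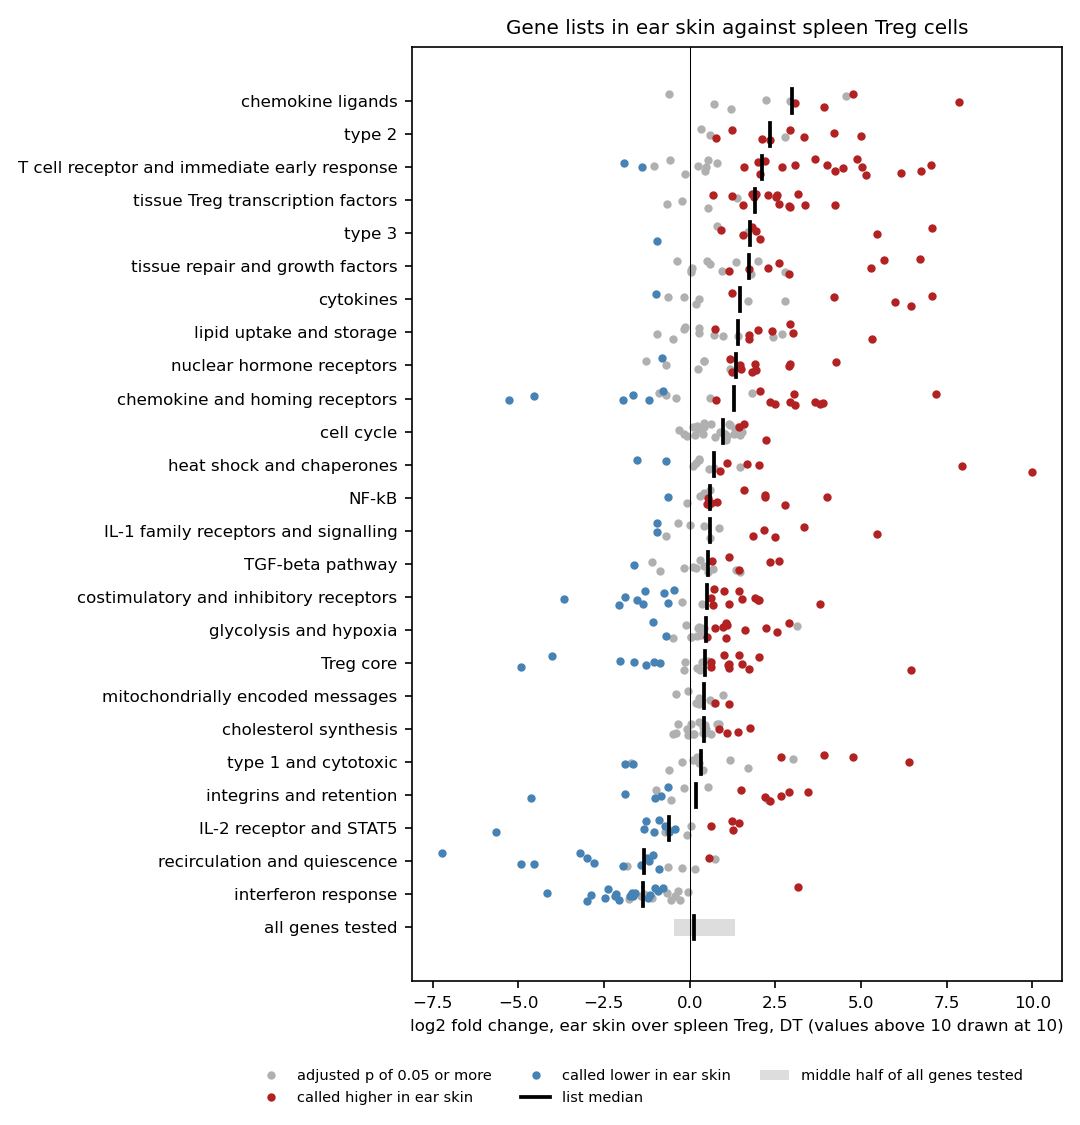
Log2 fold change of every tested member of 25 gene lists, ear skin over spleen Treg cells of the DT arm, with lists ordered by their median (black bar). Red and blue points were called higher and lower in ear skin and grey points were not called. The grey box spans the quartiles of all genes tested, around a median of 0.126. The interferon and recirculation lists lie lowest, at medians of -1.36 and -1.33.

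Single genes with the largest differences belonged to several classes. Among the largest rises, Rasgrf1, an exchange factor of Ras, had 178, 125 and 193 CPM in ear skin, against 0.836, 0.382 and 1.01 CPM in spleen (7.77 ± 0.74, adjusted p = 1.25e-09). The chemokine receptor gene Ccr1 followed with 65.0, 44.3 and 108 CPM in ear skin, against 0, 0.191 and 1.51 CPM in spleen, and the adhesion receptor gene Adgrg3 with 37.1, 30.5 and 105 CPM against 0.335, 0 and 0.756 CPM. Genes at 1 to 3 counts in the spleen group were the chemokine gene Cxcl2 (ratio 271, exact counting interval at 95% 74.4 to 2250), the trefoil factor gene Tff1 (246, 43.4 to 9760) and Calca, which encodes calcitonin gene-related peptide (190, 52.1 to 1580). Calca was not called with limma voom (adjusted p = 0.0517). Mrgpra3, an itch receptor gene, and Ifitm1 had no count in spleen and were at least 123-fold and 100-fold higher against the floor. Hspa1b and Tppp3 completed the 12 largest rises, with Pcsk1 and Hspa1a above. Intervals and floors cover counting error only.

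Among the largest falls, Art2b, an ADP-ribosyltransferase of the T cell surface that uses NAD, had 0.765, 0 and 0.663 CPM in ear skin, against 228, 261 and 299 CPM in spleen (-9.16 ± 0.61, adjusted p = 4.94e-13). P2rx7, the ATP-gated channel that this enzyme can activate, had 0.765, 3.24 and 1.66 CPM in ear skin, against 265, 253 and 273 CPM in spleen (-7.02 ± 0.48, adjusted p = 9.47e-13). Art2a (-4.91) is a close copy of Art2b, so reads of the pair may be shared. Igfbp4, a binding protein of insulin-like growth factors, fell by 7.24, Tbc1d4, a Rab GTPase activator of glucose transporter traffic, by 6.20, and Gata1 by 5.55. Slc28a2b, Apol7e, Enpp4, Cybb and Dtx1 made up the rest with Bcl2 and Cxcr5.

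Markers of other cell types were read beside these results. Summed levels lay apart between the tissues for fibroblasts (24.5 to 31.6 CPM in ear skin and 1.72 to 4.54 CPM in spleen), keratinocytes (33.7 to 64.3 and 20.2 to 27.0 CPM), macrophages and monocytes (9.62 to 13.8 and 2.27 to 6.52 CPM) and mast cells (16.7 to 30.5 and 3.02 to 3.44 CPM, led by Kit). Dendritic and Langerhans cell markers, led by Cd74, summed to 237 to 383 CPM in ear skin and 117 to 195 CPM in spleen. Neutrophil markers summed to 204 to 375 CPM in ear skin and 21.4 to 25.8 CPM in spleen, of which Mmp9 alone averaged 270.2 and 23.1 CPM. Adipocyte (3.06 to 7.02 and 1.91 to 2.77 CPM) and skeletal muscle markers (18.4 to 23.5 and 13.9 to 17.6 CPM) were slightly higher. Lower in ear skin were the sums for endothelial cells (64.7 to 89.9 and 192 to 211 CPM, led by Pecam1), B cells (14.3 to 25.1 and 31.0 to 34.6 CPM), CD8 T cells (10.6 to 13.8 and 16.4 to 28.3 CPM) and Schwann cells (80.2 to 113 and 119 to 142 CPM). Sums for melanocytes, gamma delta T cells, NK and innate lymphoid cells and red blood cells overlapped. The defining markers at 0 in spleen included Krt5, Lor, Lum, Mfap5, Mcpt4, S100a9, Cxcr2, Klra8, Klra4, Klrd1 and 4 haemoglobin genes. In ear skin they were Cfd and 2 haemoglobin genes. Fibroblast, keratinocyte and macrophage sums stayed under 65 CPM in every ear skin library. The part of such cells in the results was not tested.

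Whether the skin difference was the same in the other arm was asked in PBS libraries, which enter no group mean of the DT comparison. Both arms were in 1 fit, so they share the gene filter, the scaling and the estimate of spread. In PBS mice, 4195 genes (23.7%) were called between ear skin and spleen, 1971 higher (11.1%) and 2224 lower (12.5%). Fitted with the compared PBS libraries alone, the count was 2296, so the shares that follow hold for the fit of all 32 libraries. Of the DT calls, 63.1% were also called in PBS, and of the PBS calls 59.0% were also called in DT. Of 2476 genes called in both, 2474 had the same direction. Over all genes tested, fold changes of the arms correlated at r = 0.707, and at 0.884 over the 8872 whose mean reached 10 CPM. These are correlations across genes, which are not independent replicates. Areg differed by 6.72 in DT and 6.53 in PBS, Itgae by 2.89 and 3.53, Il10 by 6.46 and 6.0 and Art2b by -9.16 and -9.70, each as a log2 fold change.

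A test of the difference itself, the skin effect in DT minus that in PBS, called 8 genes (0.0451%), 5 positive and 3 negative. Gbp2, Gbp6, Tgtp2 and Ifi206, interferon-induced genes, and the receptor gene Gpr34 were the 5. Gbp6, a guanylate-binding protein gene, had 83.0, 114 and 63.0 CPM in DT ear skin against 51.4, 39.0 and 40.1 CPM in DT spleen, and 17.7, 28.6 and 23.5 CPM in PBS ear skin against 59.8, 46.6 and 34.5 CPM in PBS spleen. Its log2 fold change was 1.00 ± 0.26 in the DT arm and -1.02 in the PBS arm, a difference of 2.02 (adjusted p = 0.0405). The DT call was lost without ear skin library 5 (0.75, adjusted p = 0.0714). Gbp2 was lower in skin in both arms, by -1.69 in DT and -3.73 in PBS (difference 2.04, adjusted p = 0.0405). In the interferon response list, 17 of 28 genes were lower in skin in DT and 25 of 28 in PBS, with medians of -1.36 and -2.38. Gbp2 is the member whose difference between the arms was called. These calls are fragile. None of the genes was called with limma voom, with the replicate numbers as a block or with the compared libraries alone. With the block, the edgeR adjusted p was 0.0873 for Jrk and 0.0502 for each of the others. It was 0.0932 to 0.397 with voom and 0.186 to 0.245 with the compared libraries alone. DESeq2 called 34 genes and the fit without a filter on low counts 68. The fits with voom, the block and the compared libraries alone held 1292, 1128 and 781 genes at an unadjusted p under 0.05. Leaving out 1 library gave no call for 8 of the 12 libraries, 5 calls without DT ear skin library 6 and 34 without PBS spleen library 3.

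**Figure D3:**
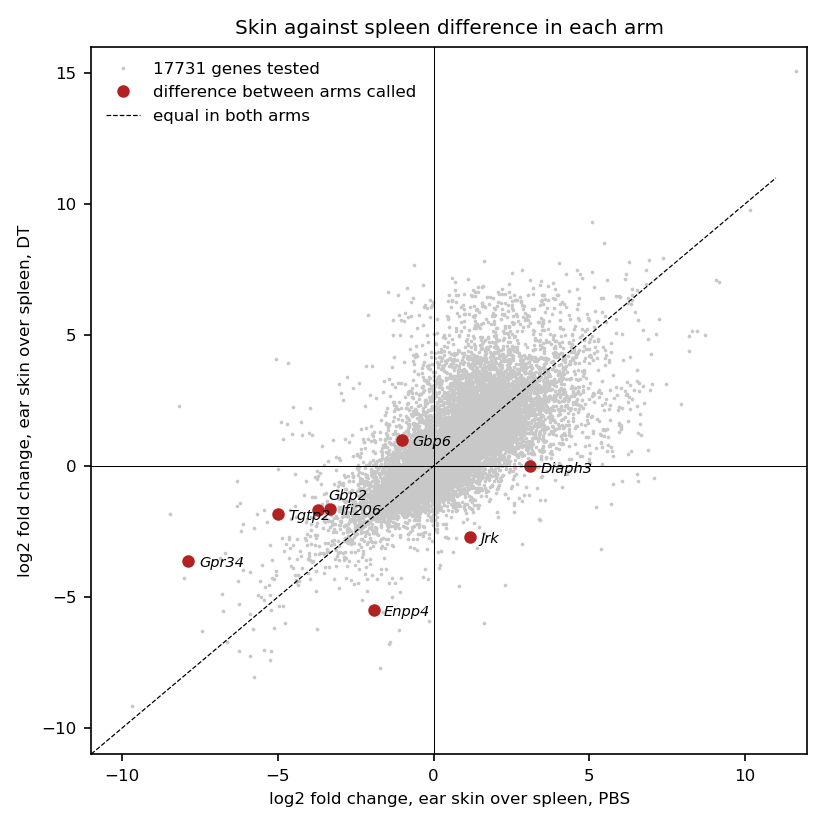
Log2 fold change of ear skin over spleen Treg cells in the DT arm (vertical) against the PBS arm (horizontal) for all 17731 genes tested, with the 8 genes whose difference between the arms was called in red. The dashed line marks equal change. Gbp6 lies above 0 in DT and below 0 in PBS.

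To see which differences set ear skin apart from other tissues as well, DT ear skin was compared with DT lung, liver and VAT. These comparisons share the 3 ear skin libraries, so they are not independent of the one with spleen. Against VAT, 2308 genes (13.0%) were called, 889 higher (5.01%) and 1419 lower (8.00%) in ear skin. Against lung, 2866 (16.2%) were called, 1064 higher (6.0%) and 1802 lower (10.2%), and against liver 2360 (13.3%), 752 higher (4.24%) and 1608 lower (9.07%). With RLE the splits were 1108 and 855 for VAT, 1403 and 1452 for lung and 951 and 1131 for liver. VAT library 7 stood apart, with fibroblast markers at 676 CPM against 2.77 to 7.36 CPM in the other 3. Without it 2492 genes were called against VAT. Without ear skin library 5 the count was 1350, and without VAT library 5 it was 1378. The count was likewise under 1540 without ear skin library 4 (1476), ear skin library 6 (1529) or VAT library 8 (1490). Against liver it was 1541 without liver library 4 and 1523 without liver library 5.

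The tissue Treg transcription factors, 15 of 20 higher against spleen, gave other counts against the other tissues. Against VAT 7 were higher and 3 lower in ear skin, against lung 7 and 2, and against liver 1 and 3. Over all genes tested, 5.01% were called higher and 8.00% lower against VAT, 6.0% and 10.2% against lung, and 4.24% and 9.07% against liver. In the same order, the 26 genes of the T cell receptor and immediate early list gave 2 and 9, 5 and 6, and 2 and 6. The 16 NF-kB genes gave 4 and 0, 3 and 8, and 1 and 6. The 11 type 2 genes gave 3 and 4, 5 and 2, and 2 and 2. The 19 tissue repair genes gave 0 and 0, 2 and 0, and 3 and 0. The 22 glycolysis and hypoxia genes gave 6 and 1, 5 and 0, and 3 and 0, so most were not called against these tissues. Areg averaged 476 ± 92.8 CPM in ear skin, 319 ± 96.4 in lung, 597 ± 91.3 in liver and 459 ± 242 in VAT, with no call against any of these 3 (adjusted p = 0.251 to 0.928). Rora averaged 564 ± 41.5 CPM in ear skin, 693 ± 173 in lung, 817 ± 294 in liver and 434.5 ± 73.9 in VAT, also without a call. Gata3 was lower in ear skin than in VAT (-0.74, adjusted p = 0.0247), as was Klrg1, a receptor of terminally differentiated lymphocytes (-1.60, adjusted p = 0.00182). Spleen was the tissue with the lowest Areg and Rora of the 5.

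Higher in ear skin than in each of the 4 other tissues were 161 genes (0.908%), and lower than in each were 541 (3.05%). With RLE these counts were 242 and 331, with DESeq2 314 and 392, with limma voom 652 and 733, and among genes averaging at least 10 CPM 279 and 320. With the replicate numbers as a block they were 127 and 424, and without a filter on low counts 148 and 544. Of the 161 genes, 161 were called with RLE, 159 with DESeq2, 160 with voom, 99 with the block, 121 among genes averaging at least 10 CPM and 111 without a filter. Of the 541, the same fits called 331, 390, 520, 399, 320 and 454. Itgae belonged to the higher set, at 2229 ± 315 CPM in ear skin, 300.0 ± 41.4 in spleen, 560.3 ± 90.2 in lung, 595 ± 233 in liver and 174 ± 33.1 in VAT. Il10 did too, at 630.2 ± 171 CPM in ear skin, 7.38 ± 4.89 in spleen, 47.2 ± 32.4 in lung, 201 ± 72.8 in liver and 130.4 ± 61.0 in VAT. Gzmb averaged 1939 ± 839 CPM in ear skin, 23.2 ± 14.1 in spleen, 302 ± 132 in lung, 535 ± 109 in liver and 174 ± 47.7 in VAT. Irf4, Il1r2, Ccr6, Fut7, Cd44, Cflar, Aldoa, Pkm, Bnip3, Fabp5, Smad7 and Rara were the other members from the lists, with Il4 and Ptgdr2.

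The 10 genes ranked first for being higher than in each other tissue were Tff1, Ptgdr2, Rasgrf1, Il4, Camkv, Jaml, Atp8a2, Vwa7, Arnt2 and Bcar1. Arnt2, a partner of bHLH-PAS transcription factors, averaged 325 ± 101 CPM in ear skin, 18.8 ± 6.24 in spleen, 25.04 ± 4.49 in lung, 21.2 ± 3.82 in liver and 45.8 ± 19.1 in VAT. Jaml, a junctional adhesion molecule of epithelial contact, averaged 43.4 ± 3.82 CPM in ear skin and between 1.72 and 4.79 CPM in the other tissues. Ptgdr2 averaged 12.6 ± 7.99 CPM in ear skin and was at 0 in all 4 VAT libraries. Calls against spleen for Ptgdr2, Il4, Camkv and Vwa7 were lost without single libraries (adjusted p = 0.0515 to 0.128), so these are less firm than Rasgrf1, Atp8a2 and Arnt2.

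The 10 ranked first for being lower than in each other tissue were Art2b, P2rx7, Cybb, Enpp4, Itga4, Gimap4, Art2a, Gimap7, Cd79b and Igfbp4. Itga4 averaged 12.8 ± 4.41 CPM in ear skin, 321 ± 31.7 in spleen, 207 ± 45.8 in lung, 284 ± 14.4 in liver and 556 ± 62.2 in VAT. P2rx7 averaged 1.89 ± 1.25 CPM in ear skin, 264 ± 9.93 in spleen, 73.1 ± 10.8 in lung, 114.5 ± 42.7 in liver and 158 ± 29.1 in VAT. Cybb encodes the catalytic chain of the phagocyte NADPH oxidase and Cd79b a chain of the B cell receptor complex. Cd79b averaged 1.12 ± 1.62 CPM in ear skin and 21.6 ± 5.66 CPM in spleen. From the lists, Klf2, Klf3, S1pr1, Lef1, Tcf7, Nrp1, Izumo1r, Pdcd1, Cxcr3 and Cxcr5 were in the same set, as were Cd3d, Cd3g, Trbc2 and Lck.

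**Figure D4:**
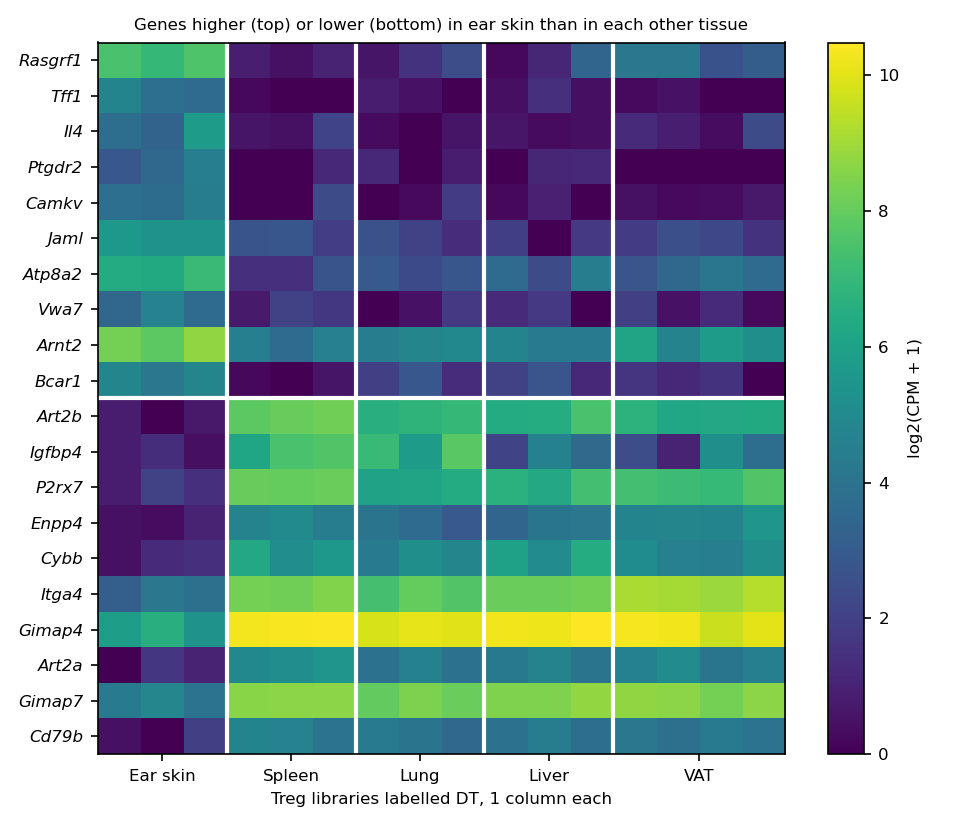
Level as log2(CPM + 1) in each DT Treg library of 5 tissues for the 10 genes ranked first as higher (top) and the 10 ranked first as lower (bottom) in ear skin than in each other tissue. The 3 ear skin libraries are the leftmost columns. Itga4 averages 12.8 CPM there and 207 to 556 CPM in the other tissues.

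Gimap4 and Gimap7 belong to the Gimap family, GTPases of lymphocyte survival encoded side by side on chromosome 6. The family was taken up after these values were seen. All 8 members in the table were lower in ear skin than in spleen, lung, liver and VAT. Gimap4 had 55.9, 95.3 and 40.8 CPM in ear skin, against 1258, 1350 and 1389 CPM in spleen (-4.37 ± 0.25, adjusted p = 2.17e-14). Summed, the family reached 565 to 869 CPM in ear skin and 6210 to 6700 CPM in spleen. In PBS mice all 8 were lower in ear skin too, with a median of -3.53 against -2.74 in DT.

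Circadian clock genes, also taken up after their values were seen, were mostly higher: 13 of 19 rose and none fell (median 1.94). The 19 include Rora, already counted among the tissue Treg transcription factors. Rora had the highest average of the 19 in ear skin (564 CPM, against 75.9 CPM in spleen). Per3, a period gene, averaged 132.5 CPM in ear skin and 14.0 CPM in spleen, Nr1d1, which encodes the repressor REV-ERB alpha, 95.2 and 5.01 CPM, and the PAR bZIP gene Hlf 37.8 and 0.756 CPM. Nr1d1 shares exon positions with Thra, so its reads may be shared. Arntl, which encodes BMAL1, averaged 48.9 CPM in ear skin and 58.0 CPM in spleen, and Dbp 11.2 and 9.95 CPM, both without a call. The time of day at which tissues were taken is not given in the labels, and its part was not tested. In PBS mice 14 of the 19 were higher in ear skin. Against the other DT tissues, 8 of the 19 were higher and none lower than in VAT. The counts were 8 and 1 against lung and 5 and 2 against liver. Summed, the 19 genes reached 2150 to 2360 CPM in ear skin, 1720 to 2615 in lung and 2114 to 3368 in liver. VAT held 1034 to 1348 CPM and spleen 416 to 543 CPM, so lung and liver overlapped ear skin. Per3, Tef and Hlf were the members higher in ear skin than in each other DT tissue.

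**Figure D5:**
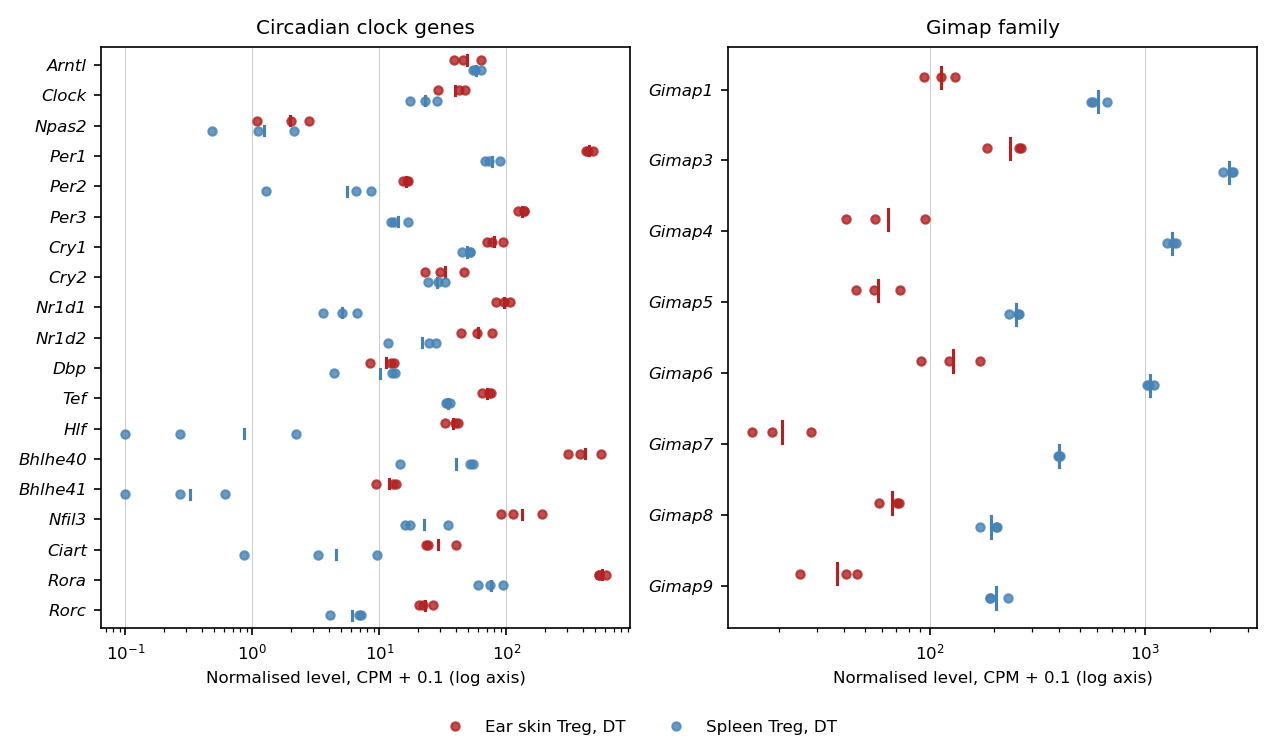
Level of 19 circadian clock genes (left) and 8 Gimap genes (right) in each library of ear skin (red, upper row) and spleen (blue, lower row) Treg cells of the DT arm, as CPM + 0.1 on a log axis, with the group mean as a bar. All 8 Gimap genes lie lower in ear skin, and Per3, Nr1d1 and Hlf lie higher.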

How the data were processed

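A single deposited table gives raw read counts (integers) by gene symbol. The submitters' processing notes name STAR 2.7.3a, featureCounts and the mm10 build. With annotation, strandedness and multi-mapping rules not given in the sources used here, copies and overlapping genes may share reads. All 32 Treg libraries from outside the thymus entered 1 fit of 10 group means in edgeR 4.0.16 (TMM, filterByExpr with minimum count 10 and minimum total 15, quasi-likelihood F test, Benjamini-Hochberg adjustment at 0.05, two-sided). SE is |log2 fold change| divided by the root of F. Levels are CPM on TMM-scaled library sizes. The fit was tested on simulated counts. Alternatives were DESeq2 1.42.0, limma 3.58.1 voom with quality weights, RLE, no filter, fewer libraries, a replicate block and left-out libraries. A floor of 10 CPM was chosen after seeing the data. No 2 DT ear skin libraries, and no 2 DT spleen libraries, were duplicates: their counts differed beyond Poisson error (chi-square over its degrees of freedom, 6.79 to 11.4). Gene positions are GENCODE M21 (mm10) and promoters RefSeq, which held 94 of 137 named genes.

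Named genes were called, averaged at least 10 CPM in the higher group and did not overlap between groups, the 12 largest in each direction. Further ones were up to 4 members of each of 25 pathway lists with the smallest adjusted p, a fixed set (Foxp3, Il2ra, Areg and others), the 10 ranked by the smallest fold against the other tissues, and genes of the arm difference. Gene models named only by number, pseudogenes and receptor segments were left out. A few genes are counted in their lists but not reported here. Members and lists were chosen with earlier results of these data known.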

Additional observations from a re-analysis of the deposited data

Results flagged for a closer look

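The skin effect differed between the DT and PBS arms, by the test of the difference, for 8 genes, given as the log2 difference of DT minus PBS. It was 4.26 for Gpr34, a receptor gene of the P2Y12 family, 3.16 for Tgtp2, 2.04 for Gbp2, 2.02 for Gbp6 and 1.70 for Ifi206. It was -3.90 for Jrk, -3.58 for Enpp4 and -3.12 for Diaph3, a formin gene. Diaph3 had 9.57, 5.13 and 4.97 CPM in DT ear skin against 7.19, 6.68 and 5.80 CPM in DT spleen, and 17.2, 7.84 and 12.1 CPM in PBS ear skin against 1.15, 1.31 and 1.84 CPM in PBS spleen. Tgtp2 has a near-identical copy, Tgtp1, so its reads may be shared. Each of the 8 was called under only 5 to 8 of the 18 or 19 alternatives that tested it, so most alternatives did not call it.

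Among 37 gene levels and marker sums checked in the 4 DT VAT libraries, 8 held a library far from the other 3, and chance flags about 1 in 20. VAT library 7 was highest for the marker sums of fibroblasts (676 CPM), dendritic and Langerhans cells (685.5 CPM), macrophages and monocytes (108 CPM), keratinocytes (36.6 CPM) and adipocytes (4.07 CPM), and lowest for Gimap7 (313 CPM). VAT library 8 was highest for Enpp4 (43.3 CPM), and VAT library 5 for the Schwann cell markers (209.7 CPM). No comparison of ear skin with spleen uses these libraries, other than through the shared gene filter, scaling and estimate of spread.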

How the results depend on the processing

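Of 130 named genes called between DT ear skin and spleen, 115 were called under every alternative that tested them. The count of 3926 called genes stayed within 1.5 times except with limma voom (6464), and was 2762 to 3347 without 1 library and 2831 of 8877 genes averaging at least 10 CPM. Whether equal replicate numbers mark the same mouse is not stated. In deviations from the group means, same-numbered ear skin and spleen libraries correlated at -0.0491 to 0.00336 and other pairs at -0.0412 to 0.0671. With 3 libraries a group, these values show no pairing but cannot exclude it. With the replicate numbers as a block the count was 3971 for DT ear skin against spleen, 4101 in PBS, 1448 against VAT and 0 for the arm difference. In PBS the compared libraries alone gave 2296 calls, and leaving out 1 library 3038 to 4846. Limma voom gave 4450 calls against VAT and 4230 against liver. Left-out libraries gave 1350 to 2492 calls against VAT, 2126 to 2472 against lung and 1523 to 2441 against liver. The arm difference (8 genes) gave 34 calls with DESeq2, 68 without a filter, 0 with voom and 0 with the compared libraries alone, and 0 to 34 without 1 library. At an unadjusted p under 0.05 the fits with 0 calls held 1292 (voom), 781 (compared libraries alone) and 1128 (block) genes. Uncalled values that changed sign were Ikzf2 (0.0265 with RLE, 0.0264 with DESeq2, 0.0579 at 10 CPM, against -0.127), Penk (-0.889 to 0.297 without 1 library, positive without spleen library 4, against -0.37) and Diaph3 (0.129 with DESeq2, 0.139 with RLE, 0.0526 with DT libraries alone, 0.0967 with the compared libraries alone, 0.06 with the replicate block added and -0.378 to 0.144 without 1 library, against -0.0157). The cause was not tested.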

Other observations

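Some gene sets outside the lists were read after their values were seen, as descriptions. Among 10 tested genes of NAD and ATP handling at the cell surface, 7 were lower in DT ear skin than in spleen and 2 higher. Over all genes tested, 11.6% were called lower and 10.5% higher. The 7 include Art2b, P2rx7 and Art2a, already given among the falls. Cd38, an NAD-consuming enzyme, averaged 6.63 CPM in ear skin and 50.4 CPM in spleen, and Nt5e, which encodes CD73, 159 and 386 CPM. P2ry10 (244 and 130.3 CPM) and the adenosine receptor gene Adora2a (83.9 and 55.7 CPM) were higher. Entpd1, which encodes CD39, averaged 141 CPM in ear skin and 113.5 CPM in spleen, without a call.

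Mrgpra3 and Calca, among the largest rises, are known from sensory neurons. Of 22 genes known from such neurons, 11 were tested, and these 2 were the ones called, beside 22.1% called among all genes tested. Calca was not called with limma voom (adjusted p = 0.0517). Scn10a averaged 4.06 CPM in ear skin and 0.886 CPM in spleen, Trpv1 2.46 and 0.574 CPM and P2rx3 4.28 and 0.598 CPM, and Nefl had no count in either group. The summed level was 65.0 to 127 CPM in ear skin and 5.69 to 15.1 CPM in spleen. The part of nerve fibres in these levels was not tested.

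Among 19 interferon-inducible GTPases, 8 were lower and 1 higher in DT ear skin than in spleen. In PBS, 17 were lower in ear skin than in spleen. Over all genes tested, 11.6% were called lower and 10.5% higher in DT ear skin, and 12.5% lower in PBS ear skin. Ifi47 averaged 109 CPM in DT ear skin and 731 CPM in DT spleen, and Gbp4 523 and 391 CPM, the second without a call.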
